A study of Mus musculus with 3 samples.

Results

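The 9 sodium transport genes described here were Slc34a1, Slc9a3, Slc12a1, Slc12a3, Scnn1a, Scnn1b, Scnn1g, Atp1b1 and Kcnj1, of 22535 genes counted in single cells of the mouse kidney. They were listed by name, for the nephron segments in which their products carry or support sodium transport, and their levels were compared between the proximal tubule and the distal nephron after ischemia-reperfusion injury (IRI). Cells came from the kidney cortex of WT1CreERT2; Rosa26-tdTfl/+ mice, in which the Wt1 promoter drives an inducible Cre and cells that express Wt1, mainly podocytes and a part of the parietal epithelial cells (PECs), are marked with tdTomato (tdT). For the library Sham, sorted tdT+ and tdT- cells of sham-operated mice were combined at 2:1. For IRI24h-TDN they were combined likewise, from mice taken 24 h after a severe IRI of both kidneys. For IRI24h-TD only the tdT+ cells of mice at this time were loaded. Each library pooled 4 kidneys, and all 3 carried the reporter alleles. The ages of the mice were not given in the sources used here.

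Filtered sodium is taken back along the nephron by a different entry protein in each segment. The proximal tubule uses phosphate, glucose and amino acid carriers and the Na+/H+ exchanger, the thick ascending limb (TAL) uses the Na+-K+-2Cl- cotransporter, the distal convoluted tubule (DCT) uses the Na+-Cl- cotransporter, and the connecting tubule and the principal cells of the collecting duct (CNT/PC) use the epithelial sodium channel ENaC. In all of them the Na+/K+-ATPase of the basolateral membrane keeps the cell's sodium low, and potassium channels return the potassium that enters with it.

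Barcodes were kept with at least 200 genes and at most 50% mitochondrial molecules (counted by unique molecular identifiers, UMIs), which left 26760 of 30008. Sham kept 8047 cells, IRI24h-TDN 9024 and IRI24h-TD 9689. The libraries held 69980443, 92355554 and 93470709 UMIs, and pairs of libraries shared 102 to 114 barcodes, at most 1.13% of a library. Cells were clustered without the 9 genes and without 58 other sodium transport genes, and clusters were named from other marker genes, so that no segment was called by a gene measured in it. Names end in "-like" because the clusters of the study were not used here. A level is the UMIs of a gene summed over the cells of a segment, scaled to a total of 1000000 UMIs for those cells (CPM), with its exact Poisson 95% interval. A change is the log2 ratio of CPM in IRI24h-TDN over Sham, with the exact 95% interval of the split of both counts. These intervals, and the Clopper-Pearson 95% intervals of shares, cover counting error only. With 1 library per condition there was no replicate check and no test of a condition, and p-values were not computed.

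Proximal tubular epithelial (PTEC)-like cells were fewer in the injured mixture, whereas distal segments were more frequent. PTEC-like cells made up 12.7% of the kept cells of Sham (1025 cells, 95% interval 12.0 to 13.5%), 1.32% of IRI24h-TDN (119 cells, 1.09 to 1.58%) and 0.671% of IRI24h-TD (65 cells). The share in IRI24h-TDN was 9.66-fold lower than in Sham, a log2 ratio of -3.27 with a lower bound of -3.56 and an upper bound near -3.0. Distal nephron-like cells made up 7.29% of Sham (587 cells), 17.8% of IRI24h-TDN (1603 cells) and 0.753% of IRI24h-TD (73 cells), and their log2 ratio in IRI24h-TDN over Sham was 1.28 (1.15 to 1.42). As clustered, all 4 distal classes were more frequent in IRI24h-TDN. TAL-like cells went from 121 to 468, DCT-like cells from 49 to 445, CNT/PC-like cells from 235 to 344 and intercalated (IC)-like cells from 182 to 346. When cells were called 1 by 1 from their share of marker UMIs, CNT/PC-like cells were fewer in IRI24h-TDN (112 cells) than in Sham (175 cells), and DCT-like cells went from 123 to 195. Of the tubule cells alone, PTEC-like cells were 63.6% in Sham and 6.91% in IRI24h-TDN. These shares were set in part by the mixing of sorted cells, fewer cells of 1 class raise the shares of the others, and the number of cells lost per kidney cannot be told from them.

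**Figure D1:**
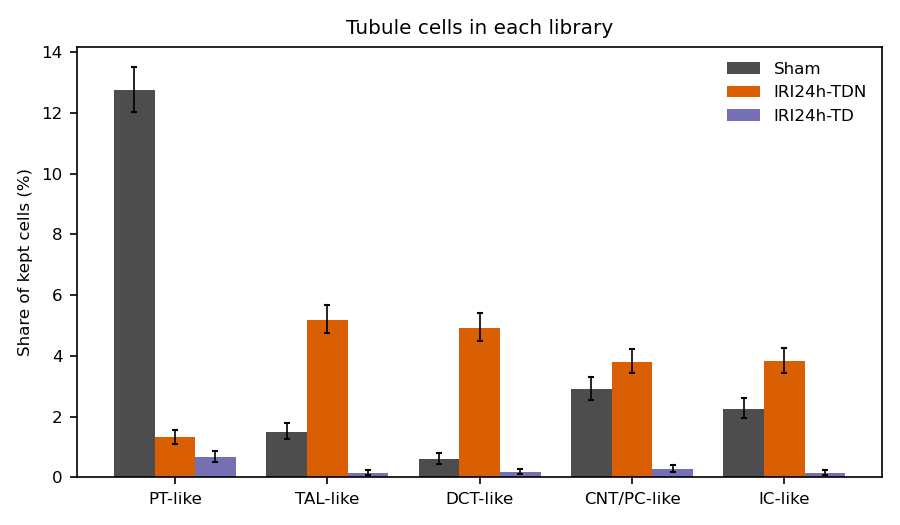
Share of the kept cells (%, vertical axis) that fell in each tubule class (PT-like, PTEC-like) of the 3 libraries, with Clopper-Pearson 95% intervals (counting error only) as bars. PTEC-like cells stood at 12.7% in Sham and 1.32% in IRI24h-TDN, whereas each of the 4 distal classes, as clustered, was higher in IRI24h-TDN than in Sham.

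The naming markers of PTEC-like, TAL-like and DCT-like cells had lower levels after IRI. The 16 proximal markers summed to 66416 CPM in the PTEC-like cells of Sham, with UMIs for 16 of 16 genes, and to 14732 CPM in IRI24h-TDN, with UMIs for 15 of 16. In TAL-like cells the 10 TAL markers summed to 17201 and 4341 CPM. In DCT-like cells the 6 DCT markers summed to 4984 and 1317 CPM, and here the 9 CNT/PC markers, some of which are shared by neighbouring segments, summed to more than that, 11179 and 2618 CPM. Markers of injured tubules were higher after IRI in each of the 5 tubule classes, with 42.0 CPM in Sham and 3141 CPM in IRI24h-TDN for PTEC-like cells and 1874 and 17732 CPM for TAL-like cells. Havcr1 (Kim1), the proximal injury marker, had 5.17 CPM in the PTEC-like cells of Sham and 2402 CPM in IRI24h-TDN, and Lcn2 (Ngal), the distal one, had 208 and 5957 CPM in TAL-like cells. The 10 podocyte markers summed to between 2025 and 3491 CPM in the 5 tubule classes of Sham and to between 1366 and 2942 CPM in IRI24h-TDN. The part of injury and of podocyte RNA in the changes below was not tested.

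Slc34a1 in PTEC-like cells and Slc12a1 in TAL-like cells had the largest reductions of the 9 genes within their own segments. Kcnj1 and Atp1b1, which several segments use, were counted in the TAL. In its own segment, each of the 9 genes was lower in IRI24h-TDN than in Sham with the whole counting interval under 0, and 4 of 9 (Slc34a1, Slc9a3, Slc12a1 and Kcnj1) were lower by 2-fold or more. These counts depend on the segment set for each gene. Slc9a3, counted in PTEC-like cells (54.5 CPM in Sham), was higher in TAL-like cells (129 CPM), where its change was 0.18 (-0.11 to 0.48). Of all genes tested (a mean of at least 50 CPM over both libraries), 11.5% were lower by 2-fold or more in PTEC-like cells, 8.61% in TAL-like cells, 8.65% in DCT-like cells and 5.32% in CNT/PC-like cells. In their own segments 8 of the 9 genes passed this filter, and Slc9a3 in PTEC-like cells, with 32 UMIs in IRI24h-TDN, did not. In thinned cells (each reduced to 2400 UMIs) Slc9a3 changed by -0.62 (-1.78 to 0.36) and 3 of 9 genes were lower by 2-fold or more. Atp1b1 was lower by less than 2-fold in the TAL (-0.53), and in DCT-like and IC-like cells its changes were 0.06 and 0.36. The median change was -2.22 over the 2 proximal genes and -0.77 over the 6 genes whose own segment was distal (Slc12a1 and Kcnj1 in TAL, Slc12a3 in DCT, Scnn1a, Scnn1b and Scnn1g in CNT/PC), of which 2 of 6 were lower by 2-fold or more. The median over all tested genes was 0.19 in PTEC-like, -0.06 in TAL-like, -0.03 in DCT-like and 0.02 in CNT/PC-like cells. Single genes did not divide the same way, since Slc12a1 in the TAL changed by -2.27, between Slc34a1 and Slc9a3 in the proximal tubule.

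**Figure D2:**
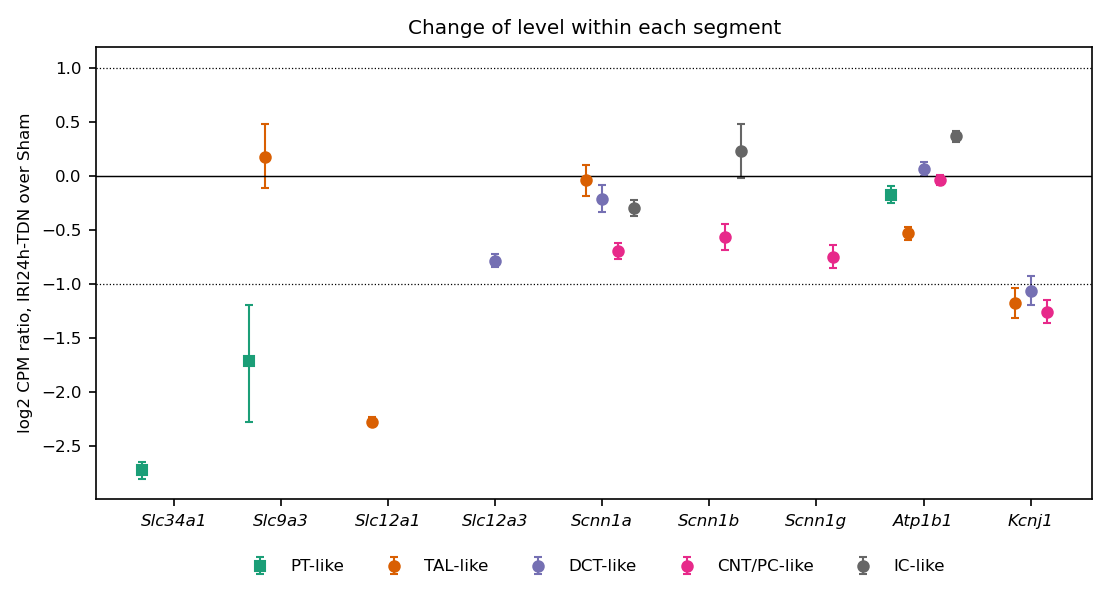
Change of each gene (log2 ratio of CPM, IRI24h-TDN over Sham, vertical axis) in the segments where it was measured at a level to compare, with exact 95% intervals (counting error only). Squares are PTEC-like cells (marked PT-like, cluster 23 included) and circles are distal classes, and dotted lines mark 2-fold. Slc34a1, Slc9a3 in PTEC-like cells, Slc12a1 and Kcnj1 lie under -1, and the other values lie between -1 and 1.

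Slc34a1 encodes NaPi-IIa, the sodium-phosphate cotransporter of the proximal brush border. The gene lies on chromosome 13 at 55398187 to 55415592 (GRCm38, plus strand). Of the 4 PTEC-like clusters, 1 (cluster 23) was led by the injury genes Havcr1 and Krt20 beside Kap, so levels are given first for the other 3 (clusters 14, 15 and 16). In these, Slc34a1 had 5037 CPM in Sham (4987 to 5087), 919 CPM in IRI24h-TDN (870 to 970) and 988 CPM in IRI24h-TD (902 to 1081). Both injured libraries were thus far under Sham and close to each other. The change in IRI24h-TDN was -2.45 (-2.54 to -2.37), a level 5.48-fold lower, and in IRI24h-TD it was -2.35. The pooled change in IRI24h-TDN also held a shift in the mix of the 3 clusters. Cluster 15, with the lowest level of the 3 in Sham and IRI24h-TDN, held 280 of 891 and 46 of 79 cells. In these 3 clusters 11.1% of tested genes were lower by 2-fold or more. At a finer resolution, a PTEC-like group led by Mpv17l and Fga also had Havcr1 among its leading genes. This group held 151 Sham cells, 39 IRI24h-TDN cells and 20 IRI24h-TD cells. Its overlap with the 3 clusters was not counted. Levels without cluster 23, here and below, are thus not shown to be free of injured cells. With cluster 23 included, the levels were 4946, 748 and 791 CPM, and the change was -2.73 (-2.80 to -2.65).

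Slc34a1 was lower after IRI in each of the 4 PTEC-like clusters. Its level went from 5305 to 1146 CPM in cluster 14 (328 and 24 cells), from 3778 to 750 CPM in cluster 15 (280 and 46 cells) and from 6337 to 1654 CPM in cluster 16 (283 and 9 cells). The first of these was led by Slc7a13 and Slco1a1 and the last by Cyp2d26 and Slc5a12. In the Havcr1-led cluster 23 it went from 3784 CPM in the 134 cells of Sham to 283 CPM in the 40 cells of IRI24h-TDN, the lowest injured level among the 4. Havcr1 led this cluster over the cells of all libraries together, and the PTEC-like cells of Sham had little Havcr1, as given above. The cells of cluster 23 were thus not shown to be in a like state in both libraries. Their median depths were 3016 UMIs in Sham and 8842.5 in IRI24h-TDN. A PEC-like cluster, whose next best match was the proximal tubule list (cluster 10, with Wfdc16 and Gc among its leading genes), also held Slc34a1, with 2376 CPM in Sham (217 cells), 155 CPM in IRI24h-TDN (98 cells) and 64.1 CPM in IRI24h-TD (97 cells). There the change was -3.94 (-4.11 to -3.77).

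**Figure D3:**
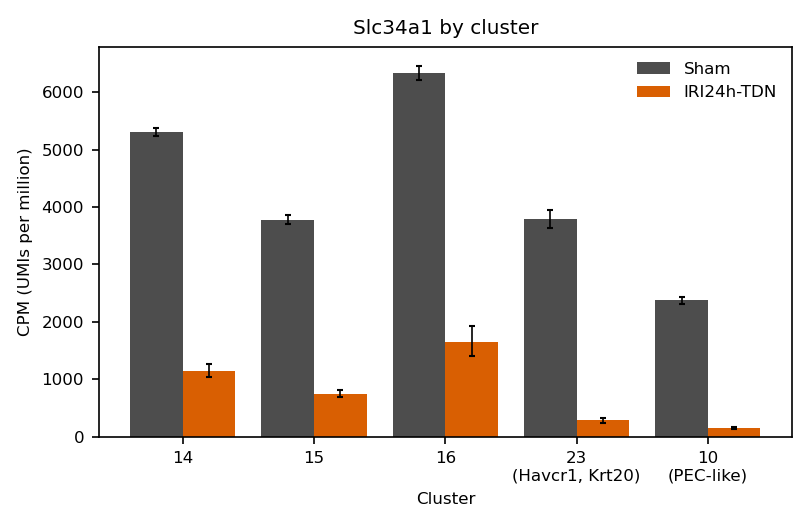
Level of Slc34a1 (CPM, vertical axis) in the 4 PTEC-like clusters and in the PEC-like cluster 10 of Sham and IRI24h-TDN, with exact Poisson 95% intervals (counting error only). In each cluster the level in IRI24h-TDN is under that in Sham, from 6337 to 1654 CPM in cluster 16 and from 3784 to 283 CPM in cluster 23.

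Among single PTEC-like cells the whole distribution of Slc34a1 was lower. The median was 48.9 UMIs per 10000 in Sham and 6.03 in IRI24h-TDN, and the 90th percentile of IRI24h-TDN, 18.9, lay at the 10th percentile of Sham, 19.0. A UMI was found in 1015 of the 1025 cells in Sham, in 84.9% of cells in IRI24h-TDN and in 55.4% in IRI24h-TD, at median depths of 6831, 13308 and 3656 UMIs. After each cell was thinned to 2400 UMIs the shares were 99.2%, 65.8% and 61.1%. Podocyte-like cells, which should lack the gene, gave the background, with a UMI in 17.0%, 0.430% and 0.242% of cells in the same order, at median depths of 8208, 9333 and 9548 UMIs. In CPM this background was 27.1, 0.489 and 0.265. The distal nephron-like classes together had 38.2 CPM in Sham and 0.347 CPM in IRI24h-TDN, near this background, and CNT/PC-like and IC-like cells of IRI24h-TDN had 0 UMIs of Slc34a1, which allows up to 0.842 and 0.631 CPM. Over all kept cells, which combines the number of PTEC-like cells with their level, Slc34a1 had 777 CPM in Sham, 20.5 CPM in IRI24h-TDN and 7.01 CPM in IRI24h-TD.

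The start of Slc34a1 is shown because this gene had the largest change in its own segment, and the starts of Scnn1b and Scnn1g because these neighbouring genes changed alike. The sequences are the 250 bases before the RefSeq start (GRCm38.p6, plus strand), at chr13:55399398-55399647 for Slc34a1, chr7:121864788-121865037 for Scnn1b and chr7:121734229-121734478 for Scnn1g. Capitals mark the letters searched on both strands, GTTAAT (or ATTAAC), a half-site of the proximal tubule factor HNF1, and AGAACA (or TGTTCT), a half-site of steroid receptors. TATAAA was also searched.
Slc34a1: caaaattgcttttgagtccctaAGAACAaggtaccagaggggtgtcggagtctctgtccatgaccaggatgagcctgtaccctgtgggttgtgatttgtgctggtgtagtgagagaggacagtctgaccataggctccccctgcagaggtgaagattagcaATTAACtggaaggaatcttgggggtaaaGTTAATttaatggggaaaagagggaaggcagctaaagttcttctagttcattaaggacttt
Scnn1b: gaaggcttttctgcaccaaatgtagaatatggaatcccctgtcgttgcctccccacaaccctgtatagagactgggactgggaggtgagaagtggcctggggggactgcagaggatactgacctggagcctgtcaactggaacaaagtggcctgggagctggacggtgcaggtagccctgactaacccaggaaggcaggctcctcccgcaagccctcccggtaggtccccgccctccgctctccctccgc
Scnn1g: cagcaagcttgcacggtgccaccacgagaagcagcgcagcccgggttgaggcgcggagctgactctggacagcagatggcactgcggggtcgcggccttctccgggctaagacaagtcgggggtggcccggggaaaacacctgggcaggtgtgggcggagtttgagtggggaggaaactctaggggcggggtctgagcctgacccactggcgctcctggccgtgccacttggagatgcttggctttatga
Slc34a1 held 2 HNF1 half-sites, at positions -89 and -61 from the start, and 1 steroid receptor half-site at -228, whereas Scnn1b and Scnn1g held none of the searched letters. Of 32851 promoters of the same length, 6.43% held the HNF1 half-site, 16.1% the steroid receptor half-site and 12.4% TATAAA. A match describes letters and is not a measured site. The bases shown for Slc34a1 lie inside the GENCODE span of the gene given above. Promoters were found for 8 of the 9 genes, all but Scnn1a. Of those not shown, Slc9a3, Slc12a1 and Atp1b1 held none of the searched letters. Kcnj1 held 2 steroid receptor half-sites, and Slc12a3 held 1 TATAAA.

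Slc9a3, the gene of the Na+/H+ exchanger NHE3, is used by both the proximal tubule and the TAL. Its change differed between them before cells were thinned. It lies on chromosome 13 at 74121457 to 74169442. In PTEC-like clusters without cluster 23 it had 55.9 CPM in Sham (432 UMIs), 21.3 CPM in IRI24h-TDN (30 UMIs) and 22.7 CPM in IRI24h-TD (11 UMIs), a change of -1.40 (-1.98 to -0.86). With cluster 23 the levels were 54.5, 16.6 and 16.9 CPM and the change was -1.72 (-2.28 to -1.20), which was -0.62 in thinned cells. In TAL-like cells it had 129 CPM in Sham (107 to 156), 146 CPM in IRI24h-TDN (136 to 157) and 75.1 CPM in IRI24h-TD (38.8 to 131, 12 UMIs in 15 cells with 50% of the UMIs in 1 cell). The change in IRI24h-TDN was 0.18 (-0.11 to 0.48). The TAL level was thus not distinguishable between Sham and IRI24h-TDN at this depth, while the proximal level was lower before thinning. The interval of the thinned change, given above, did not exclude an unchanged proximal level. By cluster the changes were -1.55 (-2.78 to -0.55) in cluster 14 and -0.82 (-1.70 to -0.03) in cluster 15. In cluster 16 the change was -0.40 (-1.88 to 0.76), with 6 UMIs in IRI24h-TDN. In cluster 23 it was -3.24 (-6.38 to -1.22), with 2 UMIs. Before thinning, the change in PTEC-like cells was lower than that in TAL-like cells by 1.89 on the log2 scale, and the 2 intervals did not overlap. The source of the UMIs moved with the number of cells. PTEC-like cells held 71.6% of all Slc9a3 UMIs of Sham and 3.84% of those of IRI24h-TDN, and TAL-like cells held 17.8% and 87.8%. The other 3 distal classes had at most 4 UMIs of the gene in a library.

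Slc12a1 encodes NKCC2, the Na+-K+-2Cl- cotransporter of the TAL and the target of loop diuretics, and was the most reduced of the 6 distal genes in their own segments. It lies on chromosome 2 at 125152505 to 125230002. TAL-like cells had 8530 CPM in Sham (8337 to 8725), 1762 CPM in IRI24h-TDN (1726 to 1799) and 1102 CPM in IRI24h-TD (945 to 1278, 15 cells). The change in IRI24h-TDN was -2.27 (-2.32 to -2.23), a level 4.84-fold lower, with 2.20% of the genes tested in these cells lower still. The median cell had 92.4 UMIs per 10000 in Sham and 10.2 in IRI24h-TDN. A UMI was still found in 99.2% and 93.4% of TAL-like cells, or in 97.4% and 80.4% after thinning, against 2.59% and 1.44% of podocyte-like cells. At a finer resolution the TAL-like cells fell into 2 groups. The group with Irx1 and Irx2 among its leading genes went from 8072 to 2249 CPM, a change of -1.84 (-1.90 to -1.78), and the group with Cldn16 and Cldn19 went from 8866 to 965 CPM, a change of -3.20 (-3.28 to -3.12). These groups had similar levels in Sham and differed in the loss by more than their intervals. Since the number of TAL-like cells was higher in IRI24h-TDN, Slc12a1 over all kept cells changed by only -0.22 (-0.26 to -0.17).

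Slc12a3, the gene of the thiazide-sensitive Na+-Cl- cotransporter NCC, was reduced less within its cells. It lies on chromosome 8 at 94329201 to 94366214. DCT-like cells had 4676 CPM in Sham (4507 to 4850, 49 cells), 2712 CPM in IRI24h-TDN (2673 to 2751, 445 cells) and 2236 CPM in IRI24h-TD (2017 to 2472, 17 cells), a change of -0.79 (-0.84 to -0.73) in IRI24h-TDN, or 1.72-fold lower. Almost every cell kept it, with a UMI in 100% of the DCT-like cells of Sham and 99.3% of those of IRI24h-TDN, against 2.50% and 4.86% of podocyte-like cells. The 49 cells of Sham were not of 1 kind. A group of 12 cells that expressed Pvalb, the marker of the early DCT, was found in Sham alone and had 8214 CPM of Slc12a3, and Pvalb in all DCT-like cells went from 965 to 30.5 CPM. In the remaining group the level went from 4131 to 2707 CPM, a change of -0.61 (-0.67 to -0.55). When cells were called 1 by 1 from their share of marker UMIs, the change was 0.12, so that the direction of Slc12a3 depended on how the DCT was called. Over all kept cells Slc12a3 was higher in IRI24h-TDN (221 CPM) than in Sham (50 CPM).

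**Figure D4:**
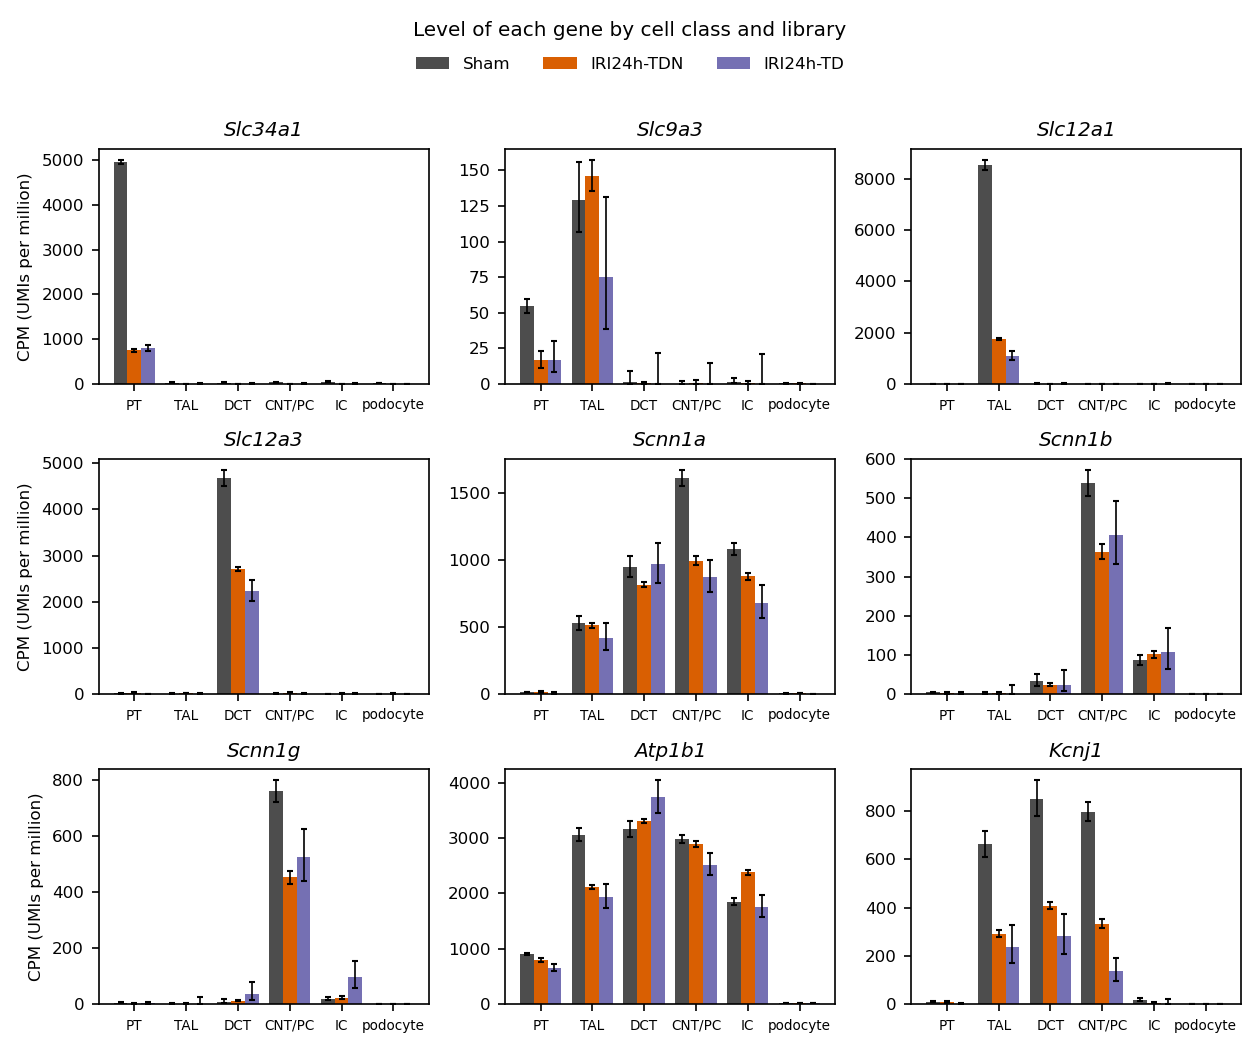
Level of the 9 genes (CPM, vertical axis, a separate scale for each gene) in 5 tubule classes (PT, PTEC-like with cluster 23 included) and in podocyte-like cells of the 3 libraries, with exact Poisson 95% intervals (counting error only). Slc34a1, Slc12a1 and Slc12a3 were each held by 1 class, Scnn1b and Scnn1g mainly by CNT/PC-like cells, and Scnn1a, Kcnj1 and Atp1b1 by several classes, with podocyte-like cells at or near 0.

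Kcnj1 encodes ROMK, the apical channel that returns potassium to the lumen for NKCC2 in the TAL and secretes it in the distal tubule, and was lower by a like amount in 3 segments. It lies on chromosome 9 at 32372493 to 32399197. TAL-like cells had 663 CPM in Sham, 292 CPM in IRI24h-TDN and 238 CPM in IRI24h-TD, a change of -1.18 (-1.32 to -1.04) in IRI24h-TDN. DCT-like cells had 853, 408 and 282 CPM, a change of -1.06 (-1.20 to -0.93). CNT/PC-like cells had 798, 334 and 138 CPM, a change of -1.26 (-1.37 to -1.15). In each of the 3 segments the order was Sham, IRI24h-TDN, IRI24h-TD, and the 3 intervals of the change overlapped. In TAL-like cells the interval of IRI24h-TD (168 to 327 CPM, 15 cells) held the level of IRI24h-TDN, so these 2 libraries were not resolved. In DCT-like cells 39.6% of the Kcnj1 UMIs of IRI24h-TD came from 1 of 17 cells. Kcnj1 was lower by 2-fold or more in these cells, and Scnn1a, in the same cells, was not. Thinned shares of cells with a UMI went from 73.3% to 40.8% in TAL-like, from 75.5% to 54.3% in DCT-like and from 74.1% to 41.5% in CNT/PC-like cells, against 0.223% and 0.299% in podocyte-like cells. IC-like cells had 16.2 and 5.26 CPM.

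Scnn1a, Scnn1b and Scnn1g encode the alpha, beta and gamma subunits of ENaC, the amiloride-sensitive channel through which aldosterone regulates sodium uptake. Scnn1a lies on chromosome 6 at 125320659 to 125344943, and Scnn1g (121734479 to 121768475) and Scnn1b (121865038 to 121918514) lie on chromosome 7 on the same strand, 96562 bases apart. In CNT/PC-like cells, where all 3 were highest, Scnn1a had 1611 CPM in Sham (1555 to 1669), 994 CPM in IRI24h-TDN (961 to 1027) and 873 CPM in IRI24h-TD (762 to 996). Scnn1b had 538, 363 and 407 CPM and Scnn1g had 758, 452 and 525 CPM. The changes in IRI24h-TDN were -0.70 (-0.77 to -0.63) for Scnn1a, -0.57 (-0.69 to -0.45) for Scnn1b and -0.75 (-0.85 to -0.64) for Scnn1g, all short of 2-fold and with intervals that touched. Over the whole class the composition of the channel's transcripts was close in both libraries, with Scnn1a making up 55.4% of the UMIs of the 3 genes in Sham (54.1 to 56.7%) and 54.9% in IRI24h-TDN (53.7 to 56.2%). Groups within the class, given below, shifted in different directions. Aqp2, the water channel of principal cells and a naming marker of this class, had 5526 CPM in Sham and 5740 CPM in IRI24h-TDN. Other naming markers of the class were lower. Of the 8 tested, 3 were lower by 2-fold or more, beside 5.32% of all genes, and 0 were higher, with a median change of -0.447.

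CNT/PC-like cells divided further into a group led by S100g, Klk1 and Trpv5, a group led by Sprr2f, Aqp2 and Aqp3, and a smaller group of 134 cells led by Sprr2a3, Krt19 and Krt5 that was left without a name. In the first, with connecting tubule genes, Scnn1a went from 1273 to 1134 CPM, a change of -0.17 (-0.28 to -0.05). In the second, with the water channels of principal cells, it went from 2029 to 1086 CPM, a change of -0.90 (-1.0 to -0.80). Scnn1a was therefore reduced more in the second group than in the first, beyond their intervals, whereas Scnn1g changed by -0.68 in both groups and Scnn1b by -0.42 and -0.49. The third group had the largest changes, -1.95 for Scnn1a, -1.67 for Scnn1b and -1.89 for Scnn1g, and its 72 cells of IRI24h-TDN had 322 CPM of Scnn1a against 1241 CPM in the 50 cells of Sham. Its cells were shallow, with median depths of 3749 UMIs in Sham and 4427.5 in IRI24h-TDN.

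Outside CNT/PC-like cells Scnn1a changed less. TAL-like cells had 528 CPM in Sham and 512 CPM in IRI24h-TDN, a change of -0.04 (-0.19 to 0.10). DCT-like cells had 946 and 816 CPM, a change of -0.21 (-0.34 to -0.09), and IC-like cells had 1080 and 878 CPM, a change of -0.30 (-0.37 to -0.22). The change in CNT/PC-like cells was thus larger than in the other 3 segments, with no overlap of its interval with theirs. Scnn1b and Scnn1g had 0 UMIs in the TAL-like cells of Sham, which allows up to 3.43 CPM, and 10 and 7 UMIs in those of IRI24h-TDN. In IC-like cells Scnn1b had 86.2 CPM in Sham and 101 CPM in IRI24h-TDN, a change of 0.23 (-0.02 to 0.48), and Scnn1g had 18.1 and 22.3 CPM. Scnn1b had a UMI in 42.9% and 54.6% of IC-like cells, at median depths of 11083 and 13392 UMIs, or in 17.9% and 22.3% after thinning, against 0.391% and 0.168% of podocyte-like cells without thinning. The 2 IC-like clusters differed, since in the one led by Slc4a1 and Aqp6, genes of type A cells, Scnn1b went from 112 to 199 CPM, a change of 0.84 (0.55 to 1.13), and in the one led by Slc26a4, the gene of pendrin in type B cells, it went from 40.3 to 55.8 CPM, a change of 0.47 (-0.09 to 1.08). Scnn1g moved in opposite directions in these clusters. In the Slc4a1-led cluster it went from 10.3 to 37.4 CPM, a change of 1.86 (0.99 to 2.82). In the Slc26a4-led cluster it went from 32.2 to 15.3 CPM, a change of -1.07 (-1.80 to -0.30). There 41.7% of the 24 Scnn1g UMIs of Sham came from 1 of 54 cells. Podocyte-like cells had 3.40 and 3.95 CPM of Scnn1a and under 1 CPM of each of the others.

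The 3 subunit genes were counted together in single cells after thinning to 2400 UMIs. All 3 were detected in 46.8% of CNT/PC-like cells of Sham (103 of 220, 40.1 to 53.6%) and in 28.5% of those of IRI24h-TDN (94 of 330, 23.7 to 33.7%). Without thinning the shares were 80.4% and 70.9%, at median depths of 7984 and 9642 UMIs. In IC-like cells all 3 were found in 0 of 168 and 5 of 345 thinned cells, in DCT-like cells in 0 of 49 and 3 of 442, and in TAL-like cells in none of 116 and 463. A count of 0 of 168 cells allows a share of up to 2.17% of cells with a UMI of all 3 at this depth, and does not limit the cells that express them. Before thinning, all 3 had a UMI in 10 of 182 IC-like cells of Sham and in 45 of 346 of those of IRI24h-TDN. Among podocyte-like cells no thinned cell of 4484 in Sham and 5345 in IRI24h-TDN held all 3.

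**Figure D5:**
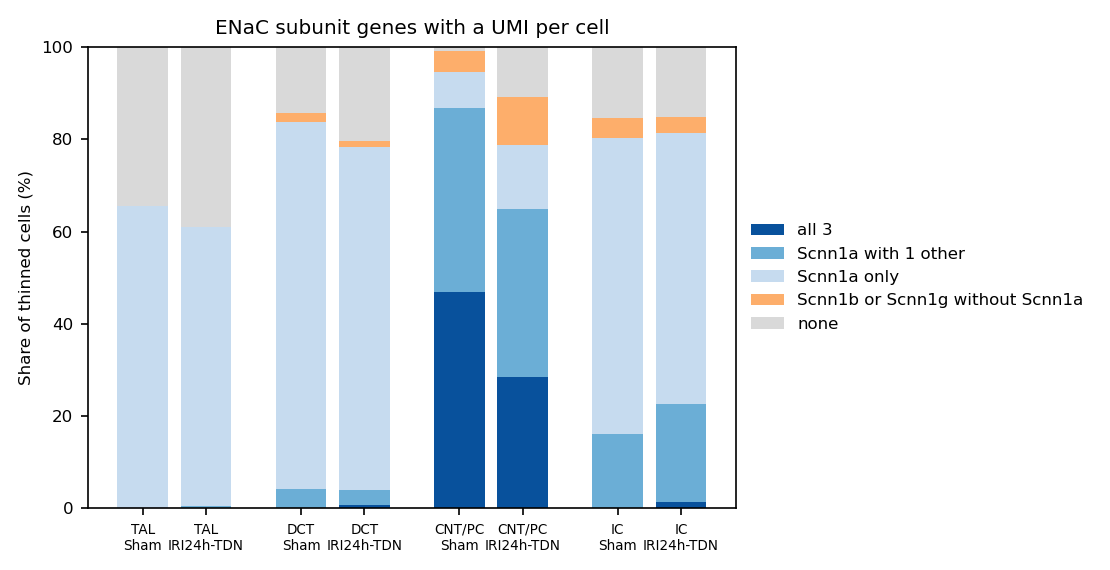
Share of thinned cells (%, vertical axis) by which of the 3 ENaC subunit genes had a UMI, in 4 distal classes of Sham and IRI24h-TDN. Cells with all 3 are found mainly in the CNT/PC-like class, at 46.8% in Sham and 28.5% in IRI24h-TDN, and Scnn1a alone is the most frequent state in the other classes.

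Atp1b1, the beta-1 subunit of the Na+/K+-ATPase, stayed within 2-fold of Sham in all 5 segments. It lies on chromosome 1 at 164437109 to 164458355 on the minus strand. In PTEC-like clusters without cluster 23 it had 927 CPM in Sham, 902 CPM in IRI24h-TDN and 836 CPM in IRI24h-TD, a change of -0.04 (-0.13 to 0.05), and with cluster 23 the change was -0.18 (-0.26 to -0.10). TAL-like cells had 3059, 2115 and 1941 CPM, a change of -0.53 (-0.59 to -0.47). DCT-like cells had 3165, 3306 and 3745 CPM and CNT/PC-like cells 2986, 2899 and 2520 CPM, with changes of 0.06 and -0.04 in IRI24h-TDN. IC-like cells had 1849 CPM in Sham, 2377 CPM in IRI24h-TDN and 1758 CPM in IRI24h-TD, a change of 0.36 in IRI24h-TDN that was seen in both IC-like clusters, 0.44 in the one led by Slc26a4 and 0.41 in the one led by Slc4a1. Atp1b1 was thus lower in TAL-like and higher in IC-like cells of IRI24h-TDN, each by less than 2-fold. Over the 3 proximal clusters without cluster 23, pooled, the interval of the Atp1b1 change held 0, and Slc34a1 was 5.48-fold lower. Podocyte-like cells had 12.8 and 17.7 CPM.

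The 58 other sodium transport genes fell into 5 lists, chosen for their roles. Of 16 sodium-coupled carriers of the proximal tubule, 13 passed the filter in PTEC-like cells, where 7 were lower by 2-fold or more and 0 were higher, with a median change of -1.11. The largest losses were Slc5a8, a sodium-coupled carrier of lactate, with 455 CPM in Sham and 22.3 CPM in IRI24h-TDN, Slc6a20b, an amino acid carrier, with 218 and 32.6 CPM, and Slc5a10, a sugar carrier, with 232 and 38.9 CPM. The sulfate carrier gene Slc13a1 had 386 and 739 CPM and the phosphate carrier gene Slc20a2 had 37.7 and 71.0 CPM, each higher but short of 2-fold. Of the sodium pump list, 0 genes changed by 2-fold in PTEC-like cells, where Fxyd2 had 3114 and 2994 CPM and Atp1b3 had 95.1 and 136 CPM. Over the 5 lists, 7 of 29 genes tested were lower in PTEC-like cells, beside 11.5% of all genes. Of the naming markers tested, 12 of 15 were lower by 2-fold or more in PTEC-like cells. This held for 7 of 10 in TAL-like and 6 of 6 in DCT-like cells. In CNT/PC-like and IC-like cells it held for 3 of 8 and 3 of 11. The median changes of these markers in the same order were -1.724, -1.575, -2.058, -0.447 and -0.266.

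Klhl3, Wnk1 and Slc8a1 of these lists were lower by 2-fold or more in both DCT-like and CNT/PC-like cells. In TAL-like cells 4 of 21 tested were lower by 2-fold or more, beside 8.61% of all genes, and 1 was higher, beside 6.56%. Kcnj10, a basolateral potassium channel, had 134 and 17.6 CPM, Bsnd, the barttin subunit of the chloride channels, had 105 and 22.8 CPM, and Wnk1, a kinase that regulates the cotransporters, had 948 and 130 CPM. Fxyd2, the gamma subunit of the pump, was the gene that was higher, with 2044 and 4796 CPM. In DCT-like cells 3 of 19 were lower, beside 8.65% of all genes, namely Klhl3, an adaptor for degradation of WNK kinases (660 and 75.3 CPM), Wnk1 (2398 and 599 CPM) and the Na+/Ca2+ exchanger gene Slc8a1 (92.5 and 28.3 CPM). Klhl3 was among the leading genes of the group of 12 Pvalb-expressing cells found in Sham alone. The part of this group in the change of Klhl3 was not tested. The pump subunit gene Atp1b2 was higher in DCT-like cells, with 30.8 and 76.6 CPM, where 6.47% of all genes were higher. In CNT/PC-like cells 6 of 27 were lower, beside 5.32% of all genes, with Slc8a1 (199 and 52.8 CPM), Klhl3 (78.3 and 24.4 CPM) and Wnk1 (351 and 132 CPM) first, and the protease gene St14 was higher (62.5 and 130 CPM, beside 6.02% of all genes). Sgk1, the aldosterone-induced kinase that acts on ENaC, had 176 and 320 CPM in these cells, higher and short of 2-fold. In IC-like cells 1 of 21 was lower (Bsnd, 127 and 59.5 CPM) and 1 was higher (Sgk1, 40.0 and 155 CPM), beside 3.95% of all genes lower and 5.73% higher.

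Genes whose level followed these genes over 32 combinations of cell class and library were ranked by Pearson's r of log2(CPM + 10), as a description, since the points share libraries and depth. The closest to Slc34a1 were Acsm2 (0.967), Fbp1 (0.962) and Cyp2j5 (0.959), of which Acsm2 and Fbp1 also named the segment. The closest to Slc12a1 were Enox1 (0.946), Cldn16 (0.915) and Cldn19 (0.914), of which the 2 claudin genes, whose products form the cation pore of TAL junctions, also named the segment. Slc12a3 was followed by Hmgcll1 (0.867), Htr3a (0.862) and Sall3 (0.830), and Scnn1a by Tspan1 (0.957), Rab25 (0.946) and Tmem213 (0.944).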

How the data were processed

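Single-cell RNA was measured on the BD Rhapsody platform in 3 libraries. UMI counts, raw and with all values whole, were deposited as 1 table of genes by barcodes for each library. The submitters' processing notes name CASAVA 1.8, UMI-tools, Seurat and mm10, and the aligner was not given in the sources used here. Sham and IRI24h-TDN both held 10062 barcodes and 20800 genes, and IRI24h-TD 9884 and 19242. Whether a table had been cut to size is not known, which limits the cell shares, and a gene missing from a table was counted as 0.

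Kept cells (median 7746, 9151 and 9529 UMIs) were scaled to 10000, and 2000 variable genes without the 9 genes, the 58 other sodium transport genes and mitochondrial, ribosomal and haemoglobin genes gave 30 components, Harmony correction (theta 2, numpy 2.4.6) and Leiden clusters on 15 neighbours at resolution 1 (leidenalg 0.10.2, igraph 0.11.9, scanpy 1.11.5, Python 3.11.15). A cluster took the name of its highest scoring marker list, with at least 3 markers in 10% of its cells. Finer groups used resolution 2. The 9 genes and the gene lists were chosen with earlier results of these data known, and the naming score, the filter of 50 CPM, the finer groups and the limits of the call per cell were set after the files were seen. Genes outside the 9 are named as the pathway genes with the largest fold in each direction (up to 3, with at least 50 UMIs in the higher library) and the 3 genes most like Slc34a1, Slc12a1, Slc12a3 and Scnn1a. Naming and injury markers, and 2 pump genes in PTEC-like cells, are named outside this rule. A gene at 0 was given the limit of 3 counts. Doublets were not removed from the values given, and leaving out the top 6% of Scrublet scores was an alternative. Other alternatives are given with their effect in the closing section. Scaling by edgeR 4.0.16 (TMM, R 4.3.3) was one of them. Steps were tested on simulated data. Positions are from GENCODE M21 (GRCm38) and sequences from RefSeq (GRCm38.p6).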

Additional observations from a re-analysis of the deposited data

Results flagged for a closer look

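Atp1b1 moved in opposite directions in different segments of the same libraries. The log2 ratio of its CPM in IRI24h-TDN over Sham was -0.18 in PTEC-like cells and -0.53 in TAL-like cells but 0.36 in IC-like cells, and the counting intervals of these values did not overlap between the IC-like cells and the other classes. The difference was not tested, because each condition had 1 library. The value in PTEC-like cells was -0.04 without the cluster led by Havcr1 and Krt20.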

How the results depend on the processing

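Under 15 alternatives (13 planned and 2 chosen after seeing the data), 134 of 135 log2 ratios of the 9 genes in the segments set for them (Atp1b1 in TAL, Slc9a3 in the proximal tubule) were lower in IRI24h-TDN. The exception was Slc12a3 in DCT-like cells at 0.12 when cells were called by marker shares without clusters, where DCT-like cells were 123 in Sham and 195 in IRI24h-TDN. The number of genes lower by 2-fold or more was 4, except 5 at 25% mitochondrial UMIs, where Slc12a3 changed by -1.25, and 3 after thinning, where Slc9a3 changed by -0.62. The log2 ratio of the PTEC-like share was -2.97 without Harmony correction, -2.67 with the 9 genes and the pathway genes allowed in the clustering, -4.14 when called by marker shares and -3.68 without the Havcr1-led cluster. That of the distal share was 0.32 when called by marker shares, with fewer CNT/PC-like cells in IRI24h-TDN (112) than in Sham (175). Slc34a1 changed by -3.00 without Harmony correction, -3.27 with the 9 genes allowed, -2.42 by marker shares, -2.85 with TMM scaling and -2.45 without the Havcr1-led cluster. The distal median was -0.92 at 25% mitochondrial UMIs, -0.89 by marker shares and -0.86 as a mean over cells. The cause of these differences between alternatives was not tested. TMM shifted all log2 ratios by -0.12 in PTEC-like, 0.11 in TAL-like and 0.08 in DCT-like cells. No paired analysis was possible because each condition had 1 library. Depth limits Slc9a3 in PTEC-like cells (32 UMIs in IRI24h-TDN), all distal classes of IRI24h-TD (13 to 28 cells) and the DCT-like cells of Sham (49 cells).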
